A study of Homo sapiens with 9 samples.

Results

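Protein palmitoylation and depalmitoylation enzymes are the genes whose products attach a palmitoyl group to cysteines of other proteins, help that reaction, or take the group off again. They were chosen by name, as every gene whose symbol begins with ZDHHC and a number, ABHD17A, ABHD17B and ABHD17C, and a short list of GOLGA7, GOLGA7B, SELENOK, LYPLA1, LYPLA2, PPT1, PPT2 and ABHD10. This gave 35 of the 19569 genes in the table: 24 palmitoyltransferases, 3 accessory subunits and 8 depalmitoylases. No measured value enters the choice of a member, but the family was proposed with earlier results of these data known, so counts over it are a description. Of the 35, 30 passed the filter on low counts and were tested, and 5 were not.

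Palmitoylation (S-acylation) is the thioester linkage of a fatty acid, usually palmitate from palmitoyl-CoA, to a cysteine, and it holds otherwise soluble proteins at membranes. The transferases are multi-pass membrane proteins of the Golgi, the endoplasmic reticulum and the cell surface, named after the Asp-His-His-Cys motif (DHHC) whose cysteine carries the acyl group during catalysis. The bond can be hydrolysed again by thioesterases, so the modification can cycle. In T cells the kinases LCK and FYN and the adaptor LAT need palmitoylation to reach the membrane where the T-cell receptor signals.

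The libraries were made from Jurkat cells of Clone E6-1, a human T-cell leukaemia line that is 1 clone, and measure mRNA only, not enzyme activity. In order of time, 3 libraries came from non-activated cells (0 h), 3 from cells activated for 5 h and 3 from cells activated for 12 h. The agents at 5 h and 12 h were plate-bound anti-CD3 antibody at 10 µg/mL and soluble anti-CD28 antibody at 5 µg/mL. No non-activated cells were kept for 5 h or 12 h, so effects of activation and effects of hours in culture cannot be told apart. The labels call the libraries biological replicates without saying that they came from separate cultures, so p-values reflect library-to-library spread alone, and that spread may be technical. In bulk libraries such as these, fewer cells holding a transcript and less of it per cell cannot be told apart.

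Library totals ran from 4222258 to 9359187 counts. All 12 T-cell markers in the table were above 1 CPM (counts scaled to 1e6 per library, with TMM factors) at each time, and their summed level was 7458 to 8437 CPM at 0 h, 8116 to 9165 CPM at 5 h and 7926 to 8976 CPM at 12 h. Single T-cell markers moved both ways. At 0 h, 5 h and 12 h the means were 743, 355 and 337 CPM for CD3G, 345, 92.5 and 142 CPM for BCL11B, and 270, 128 and 87.9 CPM for CD7. Those of PTPRC, the most abundant, were 1522, 2528 and 2582 CPM, and those of CD5 238, 731 and 628 CPM. Of the B-cell markers, CD79A alone was above 1 CPM, at a mean of 177 CPM at 0 h, 101 CPM at 5 h and 142 CPM at 12 h. LYZ of the myeloid markers (1.28 CPM at 0 h, 1.68 CPM at 5 h and 1.47 CPM at 12 h), COL1A1 of the epithelial and fibroblast markers (1.27, 1.84 and 2.19 CPM at 0 h, 5 h and 12 h) and KLRD1 of the NK-cell markers were the others above 1 CPM. KLRD1 averaged 4.86 CPM at 0 h, 11.2 CPM at 5 h and 10.1 CPM at 12 h, and the 4 NK-cell markers summed to 4.63 to 5.49 CPM at 0 h, 8.77 to 16.0 CPM at 5 h and 10.1 to 11.7 CPM at 12 h. The part of these genes in the results was not tested. Markers HBA2, HBB, EPCAM, KRT5, KRT19 and COL3A1 of other lineages were at 0 in all 9 libraries. The activation gene CD69 averaged 73.2 CPM at 0 h, 864 CPM at 5 h and 331 CPM at 12 h.

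The sequence that defines the transferases is shown first, because it is what the 24 genes share. In the longest annotated coding sequence of each, a script found the codons of DHHC in 23 genes. ZDHHC13 has Asp-Gln-His-Cys (DQHC) at that place, starting at residue 453. Each window below holds the 4 motif codons in capitals and 18 coding bases on either side in lower case, read 5′ to 3′ on the strand of the gene from GENCODE release 29 (GRCh38). The windows shown are a selection from the transferases described below, to let close relatives be compared. Windows that run over more than 1 coding exon span introns in the coordinates.
ZDHHC12: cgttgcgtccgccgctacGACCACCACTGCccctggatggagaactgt
ZDHHC23: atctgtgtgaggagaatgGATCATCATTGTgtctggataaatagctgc
ZDHHC16: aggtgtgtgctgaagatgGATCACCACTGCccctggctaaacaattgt
ZDHHC15: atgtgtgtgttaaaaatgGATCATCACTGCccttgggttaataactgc
ZDHHC20: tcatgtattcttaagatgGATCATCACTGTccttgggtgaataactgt
ZDHHC21: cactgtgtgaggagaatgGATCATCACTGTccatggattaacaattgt
ZDHHC14: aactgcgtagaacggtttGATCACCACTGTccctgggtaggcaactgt
ZDHHC9: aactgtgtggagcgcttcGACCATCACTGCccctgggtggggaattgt
ZDHHC5: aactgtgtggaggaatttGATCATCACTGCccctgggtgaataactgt
ZDHHC8: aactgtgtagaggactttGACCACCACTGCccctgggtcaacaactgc
ZDHHC17: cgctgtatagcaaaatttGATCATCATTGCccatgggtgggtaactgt
ZDHHC11: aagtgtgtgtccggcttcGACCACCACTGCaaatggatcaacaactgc
ZDHHC11B: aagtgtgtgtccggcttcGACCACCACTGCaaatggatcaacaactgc

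The ZDHHC12 window is at chr9:128721734-128721781 on the minus strand, in coding exon 4 of 5. That of ZDHHC17 is at chr12:76845751-76845798 on the plus strand, in coding exon 13 of 17. The ZDHHC11 window (chr5:847534-847581) and the ZDHHC11B window (chr5:755018-755065) both lie on the minus strand in coding exon 3. The windows of ZDHHC15 (chrX:75429186-75431452, minus), ZDHHC16 (chr10:97452502-97453546, plus) and ZDHHC20 (chr13:21400481-21402798, minus) are each assembled from 3 coding exons. Those of ZDHHC5 (chr11:57688654-57690066, plus), ZDHHC8 (chr22:20139624-20139755, plus), ZDHHC9 (chrX:129814758-129823688, minus), ZDHHC14 (chr6:157593137-157628386, plus), ZDHHC21 (chr9:14658875-14662249, minus) and ZDHHC23 (chr3:113954376-113956351, plus) come from 2 each.

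Among the 23 transferases whose windows were compared, the 253 pairs matched at a median of 31 of 48 bases, from 19 to 48. ZDHHC11 and ZDHHC11B were identical over all 48, so that stretch cannot assign a read to 1 of them. ZDHHC5 and ZDHHC8, which are close relatives, matched at 41 bases. ZDHHC9 and ZDHHC14 matched at 37, as did ZDHHC15 and ZDHHC20. These pairs are examples and not the closest for each gene. ZDHHC14 and ZDHHC18 matched at 41, and ZDHHC8 and ZDHHC11 also at 37. Calls differed within some pairs that are alike in sequence and not within others, and the difference between the genes of a pair was not tested. At 12 h ZDHHC8 was called higher and ZDHHC5 lower, and ZDHHC14 was called lower at both times and ZDHHC9 at neither. ZDHHC15 and ZDHHC20 were both called lower at both times. The 12 h calls of ZDHHC5, ZDHHC8 and ZDHHC20 and the 5 h call of ZDHHC14 were lost without some libraries or under other settings, as given below. ZDHHC9 and ZDHHC18, which matched at 43 bases, were both called at neither time.

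Levels between genes are compared per kb of the longest annotated transcript. PPT1, a lysosomal thioesterase whose loss causes a neuronal ceroid lipofuscinosis, had the highest mean of the family at each time, at 55.6 ± 6.63 CPM per kb at 0 h, 51.9 ± 1.07 at 5 h and 47.6 ± 5.60 at 12 h (SD, n = 3 each). The most abundant transferase at 0 h was ZDHHC20, a transferase of the cell surface known to act on EGFR and IFITM3, at 39.8 ± 1.42 CPM per kb. ZDHHC5, a transferase of the plasma membrane, followed at 39.6 ± 2.64, and the ranges of the pair overlapped. At 5 h ZDHHC20 stood at 27.1 ± 1.15 CPM per kb and ranked 10 in the family, while ZDHHC5 ranked 3 at each time. By the union of exons ZDHHC20 ranked 5 at 5 h and 3 at 12 h, and ZDHHC5 ranked 3 at 5 h and 4 at 12 h. ZDHHC11 was the least abundant tested member at 0 h, at 0.939 ± 0.149 CPM per kb.

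Neighbours in the order of levels mostly could not be separated. Of the 29 neighbouring pairs of tested members, the ranges of the 3 libraries overlapped in 20 at 0 h, in 20 at 5 h and in 23 at 12 h. PPT1 was above the next gene without overlap at every time. Dividing by the union of exons instead kept PPT1, ZDHHC20 and ZDHHC5 at ranks 1, 2 and 3 at 0 h, but placed ZDHHC3 at 13 instead of 5.

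**Figure D1:**
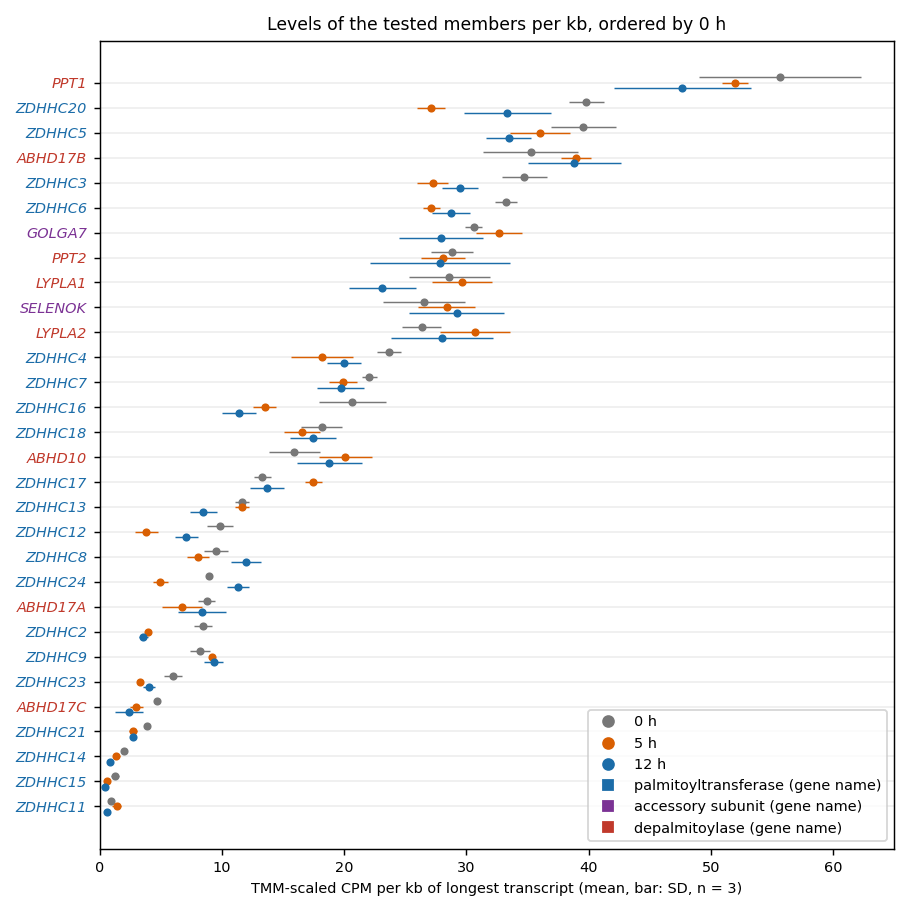
Level of the 30 tested members per kb of longest transcript (CPM per kb, linear axis) at 0 h, 5 h and 12 h; points are means and bars SD over 3 libraries, and gene names are coloured by role. PPT1 is highest at each time, and ZDHHC11 lowest at 0 h.

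Across the family, more members were lower than higher at both activated times. At 5 h against 0 h, 2 members were higher and 13 lower of the 30 tested (edgeR, adjusted p under 0.05), beside 24.9% of all 12036 tested genes higher and 24.8% lower. At 12 h against 0 h, 2 were higher and 14 lower, beside 26.3% of all genes higher and 24.8% lower. At both times the share of members called lower was above that of all genes and the share called higher was below it. The median log2 fold change of the 30 was -0.19 at 5 h and -0.23 at 12 h, with all genes at 0.00 at both times. Both comparisons use the same 0 h libraries. Scaling by library totals alone moved the median of all genes by -0.12 at 5 h and by -0.11 at 12 h. With that scaling the family had 1 higher and 18 lower at 5 h, and 0 higher and 18 lower at 12 h, while all genes had 2200 higher and 3896 lower at 5 h, and 2487 and 3899 at 12 h, against 3001 and 2984, and 3161 and 2985, with the TMM scaling used here.

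The lower calls came mainly from the transferases, which are 20 of the 30 tested members. Of the 20 transferases tested, 1 was higher and 12 lower at 5 h, with a median log2 fold change of -0.37, and 2 were higher and 12 lower at 12 h, with a median of -0.25. Neither of the 2 accessory subunits tested was called. Of the 8 depalmitoylases, 1 was higher and 1 lower at 5 h (median 0.01), and 0 were higher and 2 lower at 12 h (median -0.05). Beside these counts, 24.9% of all genes were higher and 24.8% lower at 5 h, and 26.3% and 24.8% at 12 h. The 2 depalmitoylases lower at 12 h are 25% of the 8, near the share of all genes. Between 12 h and 5 h, 4 members were higher and 5 lower, beside 18.1% of all genes higher and 17.9% lower, and 8 of these 9 members were transferases. The shares of members called between 12 h and 5 h were no larger than those of all genes.

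**Figure D2:**
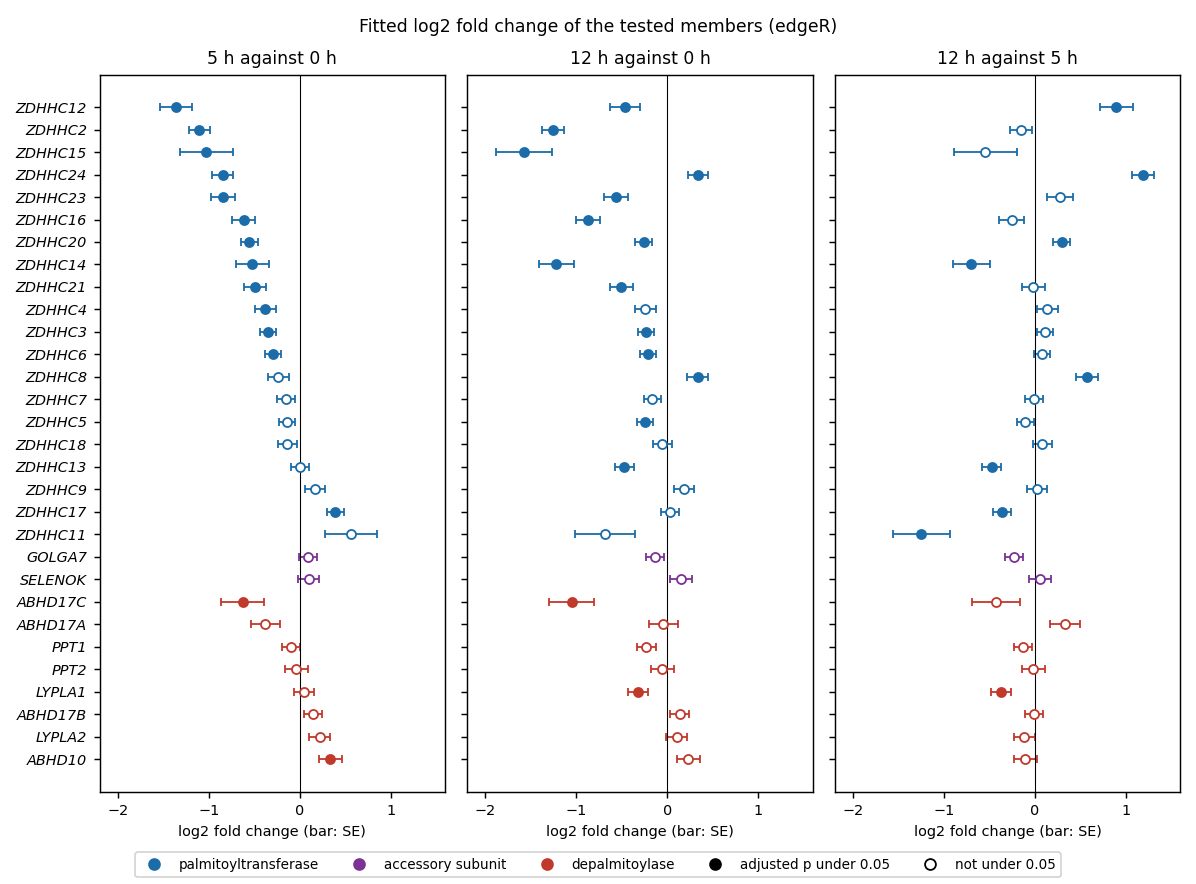
Log2 fold change of each tested member at 5 h against 0 h, 12 h against 0 h and 12 h against 5 h (edgeR, bars show the SE), grouped and coloured by role; filled points have an adjusted p under 0.05. Most transferases lie below 0 against 0 h at both times, whereas ZDHHC24 and ZDHHC8 lie below 0 at 5 h and above it at 12 h.

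The largest fall at 5 h was that of ZDHHC12, a transferase known for acting on the inflammasome sensor NLRP3 (chromosome 9, 128720869 to 128724127, minus strand). Its libraries held 23.8, 23.0 and 28.1 CPM at 0 h, 7.06, 11.9 and 10.2 CPM at 5 h, and 18.04, 20.5 and 15.5 CPM at 12 h. Every 5 h library was below every other library, and the 12 h libraries lay between the 5 h and 0 h ranges without overlap. The log2 fold change was -1.36 ± 0.17 SE at 5 h against 0 h (edgeR adjusted p = 1.51e-06), -0.46 ± 0.16 at 12 h against 0 h (adjusted p = 0.0196) and 0.89 ± 0.18 at 12 h against 5 h (adjusted p = 0.000702). The 12 h call against 0 h was lost without 0 h library 3 (-0.37, adjusted p = 0.101) or 12 h library 3 (-0.36, adjusted p = 0.107), and with limma on the deposited log2 values. PKN3, which overlaps ZDHHC12 on the other strand, had 6.94 CPM at 5 h against 8.97 CPM at 0 h (log2 -0.36, edgeR adjusted p = 0.135). At 12 h PKN3 fell to 5.47 CPM (log2 -0.73, adjusted p = 0.00603). Reads from the stretches where genes overlap may not be told apart here, since the use of strand in counting is not given. The part of PKN3 in the ZDHHC12 values was not tested.

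ZDHHC2 and ZDHHC15 are related transferases that palmitoylate the synaptic scaffold PSD-95 in neurons, and ZDHHC2 has been reported to act on LCK. ZDHHC2 (chromosome 8, 17156029 to 17224799, plus strand) held 50.8, 59.6 and 51.5 CPM at 0 h, 23.9, 25.9 and 25.3 CPM at 5 h, and 25.4, 20.8 and 22.3 CPM at 12 h. All activated libraries were below all 0 h libraries, and the 5 h and 12 h ranges overlapped. The log2 fold change was -1.10 ± 0.12 SE at 5 h (edgeR adjusted p = 1e-07) and -1.26 ± 0.12 at 12 h (adjusted p = 2.34e-08). ZDHHC15 (chromosome X, 75368427 to 75523502, minus strand) was rarer, at 5.49, 9.41 and 7.31 CPM at 0 h, 4.35, 2.02 and 4.54 CPM at 5 h, and 2.68, 2.29 and 2.51 CPM at 12 h. Its highest activated library was still below its lowest 0 h library, and the 5 h and 12 h ranges overlapped. The log2 fold change was -1.03 ± 0.29 at 5 h (adjusted p = 0.00601) and -1.57 ± 0.31 at 12 h (adjusted p = 0.000286).

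ZDHHC16, ZDHHC23 and ZDHHC14 were also lower at both times. ZDHHC16, a transferase of the endoplasmic reticulum (chromosome 10, 97446131 to 97457370, plus strand), held 35.2, 44.6 and 45.1 CPM at 0 h, 25.2, 28.9 and 27.4 CPM at 5 h, and 25.8, 22.9 and 20.3 CPM at 12 h. The 0 h libraries were all above the activated ones, with a log2 fold change of -0.61 ± 0.13 SE at 5 h (edgeR adjusted p = 0.000425) and -0.87 ± 0.13 at 12 h (adjusted p = 1.28e-05). ZDHHC23, known for acting on BK potassium channels (chromosome 3, 113947901 to 113965401, plus strand), held 27.2, 34.9 and 32.8 CPM at 0 h, 17.1, 18.5 and 17.1 CPM at 5 h, and 23.9, 21.9 and 18.6 CPM at 12 h. The 3 groups did not overlap, with 5 h lowest. Its log2 fold change was -0.85 ± 0.13 at 5 h (adjusted p = 2.67e-05) and -0.57 ± 0.13 at 12 h (adjusted p = 0.0013), and 12 h against 5 h gave 0.28 (adjusted p = 0.132). CCDC191, on the other strand at the ZDHHC23 locus, had 7.23 CPM at 5 h and 6.96 CPM at 12 h, against 6.83 CPM at 0 h, with no call (log2 0.08 and 0.05).

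ZDHHC14, a relative of the Ras transferase ZDHHC9, was the member that was lower at 12 h than at 5 h while being lower at 5 h than at 0 h. It lies on chromosome 6 (157381133 to 157678146, plus strand) and held 15.45, 13.9 and 14.3 CPM at 0 h, 7.81, 11.9 and 10.6 CPM at 5 h, and 6.09, 7.19 and 5.18 CPM at 12 h. The 3 groups did not overlap. The log2 fold change was -0.52 ± 0.18 SE at 5 h against 0 h (edgeR adjusted p = 0.02), -1.22 ± 0.19 at 12 h against 0 h (adjusted p = 2.4e-05) and -0.70 ± 0.20 at 12 h against 5 h (adjusted p = 0.0106). The 5 h call was lost without 0 h library 1 (-0.48, adjusted p = 0.0617) or 5 h library 1 (-0.37, adjusted p = 0.118), and with the DESeq2 Wald test (-0.52, adjusted p = 0.0584). The call between 12 h and 5 h was lost without 5 h library 2 (-0.56, adjusted p = 0.0676) or 12 h library 3 (-0.58, adjusted p = 0.0577).

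ZDHHC24 was lower at 5 h and higher at 12 h, the 1 member called in opposite directions. The gene lies on chromosome 11 (66520637 to 66546238, minus strand). It held 41.1, 43.1 and 42.9 CPM at 0 h, 21.6, 26.9 and 21.9 CPM at 5 h, and 53.4, 57.9 and 49.2 CPM at 12 h. Every 5 h library was below, and every 12 h library above, the 0 h range. The log2 fold change was -0.85 ± 0.12 SE at 5 h against 0 h (edgeR adjusted p = 5.17e-06), 0.34 ± 0.11 at 12 h against 0 h (adjusted p = 0.0142) and 1.19 ± 0.12 at 12 h against 5 h (adjusted p = 2.18e-07). The higher level at 12 h against 0 h was not called without 12 h library 2 (0.27, adjusted p = 0.0767) or with library totals alone (0.23, adjusted p = 0.0867). BBS1, the gene that overlaps ZDHHC24 on the other strand, was at 17.3 CPM at 5 h and 16.9 CPM at 12 h, against 17.6 CPM at 0 h, with no call at either time (log2 -0.03 and -0.02).

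**Figure D3:**
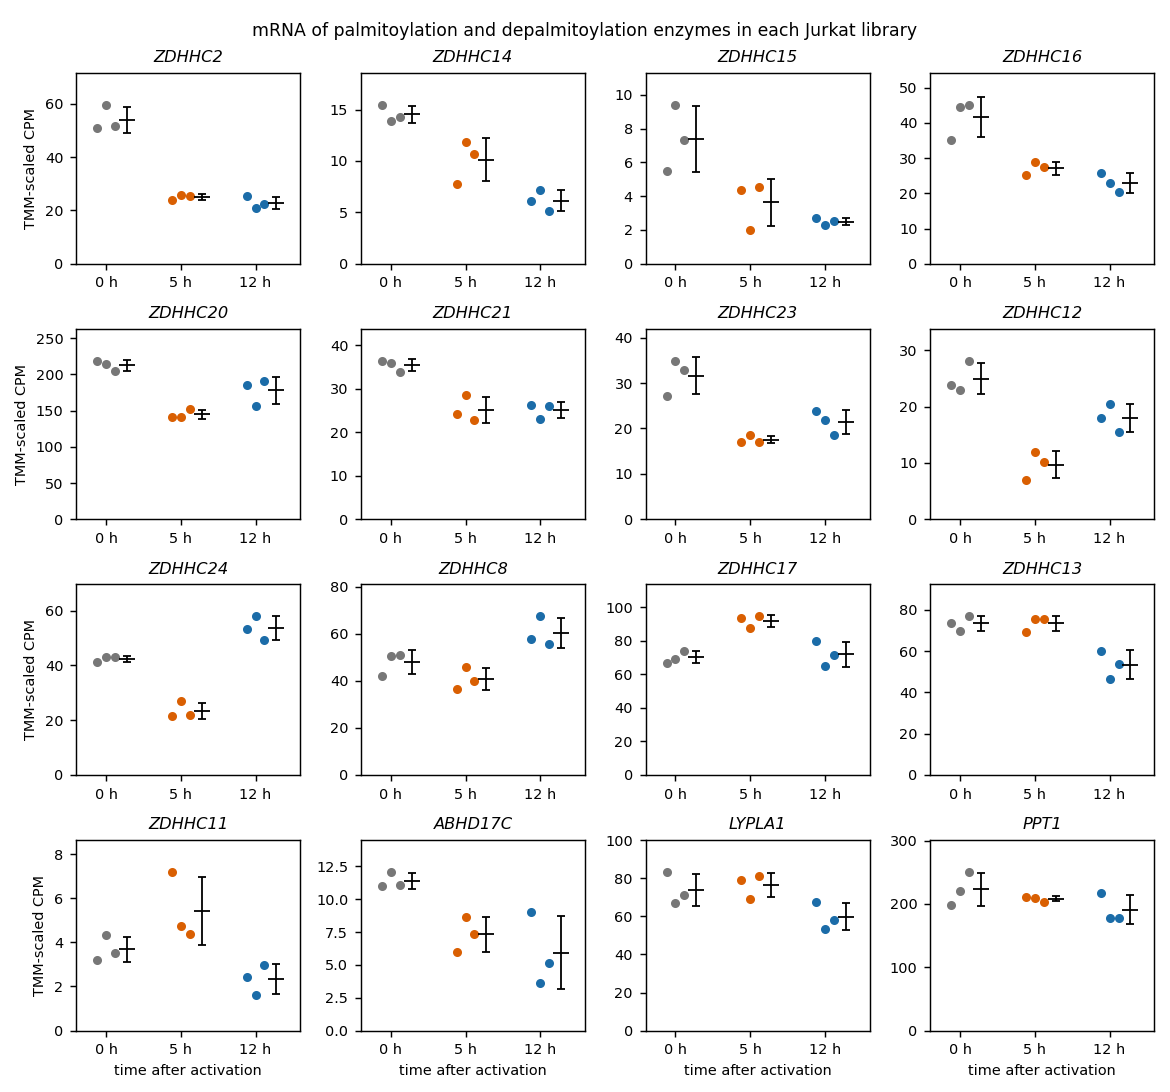
CPM in each of the 9 libraries at 0 h, 5 h and 12 h for 16 members, each panel with its own axis from 0; coloured points are libraries, and black marks are the mean with its SD over 3 libraries. The ZDHHC24 points are lowest at 5 h and highest at 12 h, and those of ZDHHC2 are near 25 CPM or below at both activated times.

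ZDHHC20 and ZDHHC21 were also lower at both times. ZDHHC20 averaged 145 ± 6.15 CPM at 5 h and 178 ± 19.0 CPM at 12 h, against 212 ± 7.58 CPM at 0 h (SD, n = 3 each). It was lower at 5 h (log2 -0.55 ± 0.09 SE, edgeR adjusted p = 3.87e-05) and, by less, at 12 h (-0.26 ± 0.09, adjusted p = 0.021), and higher at 12 h than at 5 h (0.29 ± 0.09, adjusted p = 0.0167). ZDHHC21, reported to palmitoylate LCK and PLCG1 in T cells, averaged 25.2 ± 3.02 CPM at 5 h and 25.2 ± 1.89 CPM at 12 h, against 35.5 ± 1.40 CPM at 0 h. Its log2 fold change was -0.49 ± 0.12 at 5 h (adjusted p = 0.00212) and -0.50 ± 0.12 at 12 h (adjusted p = 0.0017), and the activated libraries were all below the 0 h libraries. The 12 h ZDHHC20 call was lost without 0 h library 1 (-0.23, adjusted p = 0.0691), 0 h library 2 (-0.25, adjusted p = 0.0649) or 12 h library 2 (-0.17, adjusted p = 0.136), and with limma (adjusted p = 0.0627). That between 12 h and 5 h was lost without 5 h library 1 (0.27, adjusted p = 0.0622), 5 h library 2 (0.28, adjusted p = 0.0584) or 12 h library 3 (0.24, adjusted p = 0.0785), and with limma (adjusted p = 0.0602).

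ZDHHC3, ZDHHC6, ZDHHC4 and ZDHHC5 fell by less. ZDHHC3, a Golgi transferase of broad specificity, had 87.9 ± 4.04 CPM at 5 h and 95.03 ± 4.69 CPM at 12 h, against 112 ± 5.92 CPM at 0 h, with log2 fold changes of -0.35 (edgeR adjusted p = 0.00226) and -0.24 (adjusted p = 0.0277). ZDHHC6, which with SELENOK acts on the IP3 receptor, had 78.8 ± 2.04 CPM at 5 h and 83.5 ± 4.50 CPM at 12 h, against 96.6 ± 2.67 CPM at 0 h, with log2 fold changes of -0.29 (adjusted p = 0.00752) and -0.22 (adjusted p = 0.0426). ACSL5, which overlaps ZDHHC6 on the other strand, had 1.80 CPM at 5 h and 3.46 CPM at 12 h, against 2.18 CPM at 0 h, with no call. AL157786.1 overlaps ZDHHC6 on the same strand and has no counts here. The part of both in the ZDHHC6 values was not tested. ZDHHC4 was lower at 5 h (log2 -0.38, adjusted p = 0.00977) and not called at 12 h (-0.24, adjusted p = 0.0873), except with library totals alone (-0.35, adjusted p = 0.0155). ZDHHC5 was not called at 5 h (log2 -0.14, adjusted p = 0.205) and lower at 12 h (-0.24, adjusted p = 0.0278), and with library totals alone it was also called lower at 5 h (-0.26, adjusted p = 0.0203).

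Several of these calls were lost without single libraries or under other settings. The ZDHHC4 call at 5 h was lost without 5 h library 3 (-0.29, adjusted p = 0.0758). The ZDHHC3 call at 12 h was lost without 0 h library 2 (-0.23), 0 h library 3 (-0.20) or 12 h library 3 (-0.20), with adjusted p of at most 0.11, and with limma (adjusted p = 0.0508). The ZDHHC5 call at 12 h was lost without 0 h library 2 (-0.24), 0 h library 3 (-0.19), 12 h library 1 (-0.22) or 12 h library 3 (-0.22), with adjusted p of at most 0.122, and with limma (adjusted p = 0.0631). The ZDHHC6 call at 12 h was kept, of the 9 fits that each left out 1 library, only without 12 h library 1, and in the other 8 the log2 fold change was -0.18 to -0.24 with adjusted p of at most 0.133. With all libraries that call was also lost with the DESeq2 Wald test (adjusted p = 0.0632), with limma (0.0607), without the filter on low counts (0.0833) and in a fit of the 2 groups alone (0.0717).

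ZDHHC17 and ZDHHC13 are relatives with ankyrin repeats, and ZDHHC17 is known as a partner of huntingtin. ZDHHC17 was the 1 transferase called higher at 5 h, with 93.4, 87.7 and 94.7 CPM at 5 h, against 66.9, 69.3 and 73.9 CPM at 0 h. The groups did not overlap (log2 0.39 ± 0.09 SE, edgeR adjusted p = 0.00178). At 12 h it held 79.7, 64.9 and 71.6 CPM, which spans the 0 h range (log2 0.03, adjusted p = 0.813), and it was lower at 12 h than at 5 h (-0.36 ± 0.10, adjusted p = 0.00607). ZDHHC13 held 69.4, 75.6 and 75.7 CPM at 5 h, against 73.7, 69.7 and 77.0 CPM at 0 h (log2 0.00, approximate 95% interval -0.19 to 0.20). It fell to 60.2, 46.6 and 53.8 CPM at 12 h, below every 0 h library (log2 -0.47 ± 0.10, adjusted p = 0.000704). The fall of ZDHHC13 at 12 h against 5 h was -0.47 ± 0.10 (adjusted p = 0.00142).

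ZDHHC8, the relative of ZDHHC5, was higher at 12 h. It held 36.6, 45.8 and 39.7 CPM at 5 h, against 42.3, 50.6 and 51.2 CPM at 0 h, with overlap and no call (log2 -0.23, edgeR adjusted p = 0.105). At 12 h it held 57.8, 67.5 and 55.8 CPM, above every other library (log2 0.34 ± 0.12 SE, adjusted p = 0.0189). The difference of 12 h from 5 h was 0.57 ± 0.12 (adjusted p = 0.000842). The 12 h call against 0 h was lost without 0 h library 1 (0.26, adjusted p = 0.1), without 12 h library 2 (0.24, adjusted p = 0.123), with library totals alone (0.23) and with limma (0.33, adjusted p = 0.0615). Without 0 h library 1 (-0.33, adjusted p = 0.0403) or 5 h library 2 (-0.34, adjusted p = 0.0451), and with library totals alone (-0.36), ZDHHC8 was called lower at 5 h.

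ZDHHC11, the least abundant tested transferase at 0 h (chromosome 5, 795606 to 850986, minus strand), was called between 12 h and 5 h only. It held 3.19, 4.33 and 3.53 CPM at 0 h, 7.21, 4.72 and 4.38 CPM at 5 h, and 2.44, 1.63 and 2.96 CPM at 12 h. The 5 h libraries were above and the 12 h libraries below the 0 h range, but neither difference from 0 h was called (log2 0.57, edgeR adjusted p = 0.108, and -0.68, adjusted p = 0.0896). With library totals alone the 12 h difference from 0 h was called (-0.79, adjusted p = 0.0493). The difference of 12 h from 5 h was -1.25 ± 0.32 SE (adjusted p = 0.00449). The 9 libraries held 10 to 48 counts each for ZDHHC11, and reads shared with its near-identical neighbour ZDHHC11B may be split wrongly. BRD9, which overlaps ZDHHC11 on the same strand, had 128 CPM at 5 h and 110 CPM at 12 h, against 107 CPM at 0 h. BRD9 was called higher at 5 h than at 0 h (log2 0.27, adjusted p = 0.0147) and lower at 12 h than at 5 h (-0.23, adjusted p = 0.0489), the directions of ZDHHC11, and not called at 12 h against 0 h (0.04, adjusted p = 0.719). Its part in the ZDHHC11 values was not tested.

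ZDHHC7, ZDHHC9 and ZDHHC18 were called in none of the 3 comparisons. ZDHHC7, a Golgi transferase related to ZDHHC3, had a log2 fold change of -0.15 at 5 h (approximate 95% interval -0.34 to 0.04) and -0.16 at 12 h (-0.35 to 0.03). ZDHHC9, which with GOLGA7 palmitoylates HRAS and NRAS, had 0.17 at 5 h (-0.05 to 0.38) and 0.19 at 12 h (-0.03 to 0.41). ZDHHC18, a relative of ZDHHC9, had -0.14 at 5 h (-0.34 to 0.07) and -0.05 at 12 h (-0.26 to 0.15). These intervals leave room for changes as large as the smaller calls in the family. Every activated ZDHHC7 library (at most 73.4 CPM) was below every 0 h library (at least 74.4 CPM). For ZDHHC9 every 5 h library was above every 0 h library, with overlap at 12 h, and the ZDHHC18 ranges overlapped at both times. With library totals alone ZDHHC7 was called lower at 5 h (-0.27, edgeR adjusted p = 0.0237) and 12 h (-0.27, adjusted p = 0.0238), and ZDHHC18 lower at 5 h (-0.26, adjusted p = 0.0487).

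The accessory subunits GOLGA7 and SELENOK were called at neither time. GOLGA7, the partner of ZDHHC9, averaged 66.2 ± 3.78 CPM at 5 h and 56.6 ± 6.97 CPM at 12 h, against 62.0 ± 1.42 CPM at 0 h (log2 0.09 and -0.14). SELENOK, a selenoprotein of the endoplasmic reticulum and partner of ZDHHC6, averaged 46.3 ± 3.84 CPM at 5 h and 47.7 ± 6.31 CPM at 12 h, against 43.3 ± 5.49 CPM at 0 h (log2 0.10 and 0.15). GOLGA7 was called lower at 12 h than at 5 h only without 12 h library 3 (-0.33, edgeR adjusted p = 0.0303, against -0.23 and 0.0905 with all libraries).

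Among the depalmitoylases, ABHD17C was the 1 gene called lower at both times. The ABHD17 proteins are membrane-bound thioesterases that act on NRAS and PSD-95. ABHD17C (chromosome 15, 80679684 to 80755621, plus strand) held 11.0, 12.1 and 11.1 CPM at 0 h, 6.01, 8.64 and 7.35 CPM at 5 h, and 9.02, 3.59 and 5.18 CPM at 12 h. All activated libraries were below the 0 h libraries, and the 12 h libraries were widely spread. The log2 fold change was -0.63 ± 0.23 SE at 5 h (edgeR adjusted p = 0.0312) and -1.05 ± 0.25 at 12 h (adjusted p = 0.00141). The 5 h call was lost without any 1 of the 0 h libraries (-0.66, -0.59 and -0.65), without 5 h library 1 (-0.50, adjusted p = 0.119) and without 5 h library 3 (-0.63, adjusted p = 0.0706), and also with the DESeq2 Wald test (adjusted p = 0.063) and with limma (adjusted p = 0.112). Without 12 h library 1, ABHD17C was also called lower at 12 h than at 5 h (-0.77, adjusted p = 0.0199).

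ABHD17A and ABHD17B were called at neither time. ABHD17A averaged 36.6 ± 8.96 CPM at 5 h and 45.3 ± 10.6 CPM at 12 h, against 47.6 ± 3.82 CPM at 0 h (log2 -0.38, edgeR adjusted p = 0.0588, and -0.05). ABHD17B, the most abundant of the 3 per kb of transcript, averaged 102 ± 3.24 CPM at 5 h and 101 ± 9.90 CPM at 12 h, against 92.1 ± 10.2 CPM at 0 h (log2 0.15 and 0.13). The missing call of ABHD17A at 5 h depended on the libraries and the settings. With all libraries it was called lower with library totals alone (-0.50, adjusted p = 0.0165), without the filter on low counts (-0.38, adjusted p = 0.00633), with the filter of 50 counts (-0.40, adjusted p = 0.0442) and in a fit of the 2 groups alone (-0.38, adjusted p = 0.0254). Without 0 h library 2 it was -0.45 (adjusted p = 0.0491), without 5 h library 2 -0.51 (0.0276), without 5 h library 3 -0.46 (0.0488) and without 12 h library 1 -0.38 (0.0271). Without 12 h library 1 it was also called higher at 12 h than at 5 h (0.48, adjusted p = 0.0175), as it was without the filter on low counts (0.33, adjusted p = 0.0296).

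LYPLA1 and LYPLA2 encode the cytosolic acyl-protein thioesterases APT1 and APT2. LYPLA1 held 67.5, 53.6 and 58.1 CPM at 12 h, against 83.5, 67.2 and 71.0 CPM at 0 h, with a single 12 h library just above the lowest 0 h library (log2 -0.32 ± 0.11 SE, edgeR adjusted p = 0.0193). At 5 h it held 79.1, 69.4 and 81.2 CPM (log2 0.05), and the 12 h libraries were all lower (-0.37 ± 0.11, adjusted p = 0.0133). The 12 h call against 0 h was lost without 0 h library 1 (-0.22, adjusted p = 0.131), 12 h library 2 (-0.24, adjusted p = 0.105) or 12 h library 3 (-0.31, adjusted p = 0.0608), and with limma (adjusted p = 0.0835). The call against 5 h was lost without 5 h library 3 (-0.32, adjusted p = 0.0636) or 12 h library 2 (-0.29, adjusted p = 0.0845), and with limma (adjusted p = 0.0688). LYPLA2 averaged 55.5 ± 5.21 CPM at 5 h and 50.7 ± 7.57 CPM at 12 h, against 47.7 ± 2.86 CPM at 0 h, with no call (log2 0.22 and 0.10).

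ABHD10, PPT1 and PPT2 act inside organelles, ABHD10 in mitochondria and the PPT enzymes in lysosomes. ABHD10 was higher at 5 h, with 55.0, 45.6 and 55.5 CPM, against 41.0, 46.7 and 35.9 CPM at 0 h, and the groups overlapped (log2 0.34 ± 0.13 SE, edgeR adjusted p = 0.0313). That call was lost without 0 h library 1 (0.33), 0 h library 3 (0.25), 5 h library 1 (0.30) or 5 h library 3 (0.29), with adjusted p of at most 0.158, with library totals alone (adjusted p = 0.167) and with limma (adjusted p = 0.0994). At 12 h ABHD10 was not called (log2 0.23, adjusted p = 0.139), except without 12 h library 2 (0.35, adjusted p = 0.0313). PPT1 averaged 208 ± 4.28 CPM at 5 h and 191 ± 22.5 CPM at 12 h, against 223 ± 26.6 CPM at 0 h (log2 -0.10 and -0.23, adjusted p = 0.427 and 0.0611). It was called lower at 12 h without 0 h library 1 (-0.30, adjusted p = 0.0251) or 12 h library 1 (-0.33, adjusted p = 0.0071), with library totals alone (-0.34, adjusted p = 0.00727) and without the filter on low counts (-0.23, adjusted p = 0.0452). CAP1, which overlaps PPT1 on the other strand, had 284 CPM at 5 h and 261 CPM at 12 h, against 247 CPM at 0 h (log2 0.20, adjusted p = 0.0769, and 0.08, adjusted p = 0.462). Reads from the stretch where this pair overlaps may not be told apart, since the use of strand in counting is not given. The PPT1 level may therefore hold reads of CAP1, and that part was not tested. PPT2 averaged 59.3 ± 3.76 CPM at 5 h and 58.8 ± 12.1 CPM at 12 h, against 60.8 ± 3.61 CPM at 0 h (log2 -0.04 and -0.05), with no call. PPT2-EGFL8 overlaps PPT2 on the same strand, and AL662884.3 and AL662884.4 on the other. None of these has counts here, and their part in the PPT2 values was not tested.

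Summing CPM per kb over the members of each role describes the levels over all members, with no test. The transferases summed to 301, 319 and 328 CPM per kb at 0 h, 243, 262 and 258 at 5 h, and 274, 272 and 258 at 12 h, so the activated libraries were all below the 0 h libraries. The depalmitoylases summed to 200 to 208 CPM per kb at 0 h, 207 to 211 at 5 h and 188 to 205 at 12 h. The accessory subunits summed to 55.2 to 61.1 CPM per kb at 0 h, 58.2 to 63.9 at 5 h and 52.2 to 62.5 at 12 h, and these ranges overlapped.

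**Figure D4:**
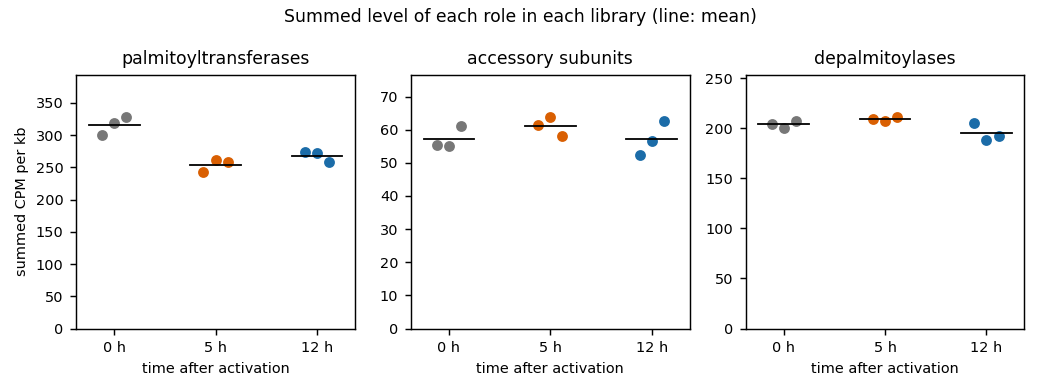
Summed level per library (CPM per kb of longest transcript) for palmitoyltransferases, accessory subunits and depalmitoylases at 0 h, 5 h and 12 h, with 1 point per library and a line at the mean. The transferase sums are 301 to 328 at 0 h and 243 to 274 at the activated times.

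The 5 members without a test had few or no counts. ZDHHC19 had 0 counts in all 9 libraries, and ZDHHC1 had 1 count in all. ZDHHC22 had 5 counts in total and ZDHHC11B 18. GOLGA7B, a relative of GOLGA7, had 39 counts, between 1 and 8 per library. It held 0.450, 0.270 and 0.782 CPM at 5 h and 0.244, 0.218 and 0.444 CPM at 12 h, against 0.894, 1.19 and 0.975 CPM at 0 h, so every activated library was below every 0 h library. Limma on the deposited log2 values, a table of the genes with a count above 0 in every library, called GOLGA7B lower at 5 h (-0.92, adjusted p = 0.0347) and at 12 h (-1.41, adjusted p = 0.00525). Without the filter on low counts edgeR did not call it (-1.02, adjusted p = 0.282, and -1.70, adjusted p = 0.0742), nor did the DESeq2 Wald test (adjusted p = 0.363 and 0.138).

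Other genes of the pathway came from 4 lists. Of 40 tested proteins known to be palmitoylated in T-cell signalling or membranes, 12 were higher and 17 lower at 5 h, with a median log2 fold change of -0.16, and 11 were higher and 16 lower at 12 h, with a median of -0.12. Of all genes tested, 24.9% were higher and 24.8% lower at 5 h, and 26.3% and 24.8% at 12 h. The 3 largest called differences at 5 h were those of the adhesion receptor CD44 (10.3 ± 1.06 CPM at 5 h against 0.264 ± 0.123 CPM at 0 h, log2 5.20), PDCD1, which encodes PD-1 (30.8 ± 9.95 CPM at 5 h against 2.47 ± 0.600 CPM at 0 h, log2 3.64), and its ligand gene CD274 (24.0 ± 1.56 CPM at 5 h against 3.68 ± 0.794 CPM at 0 h, log2 2.70). At 12 h CD44 stood at 10.7 CPM, PDCD1 at 6.39 CPM and CD274 at 17.2 CPM, and each was called higher than at 0 h.

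Of 15 tested enzymes of other protein lipid modifications, 1 was higher and 6 lower at 5 h, and 4 were higher and 5 lower at 12 h, beside the same shares of all genes (24.9% and 24.8% at 5 h, 26.3% and 24.8% at 12 h). PCYOX1, which breaks down prenylcysteine, fell to 25.8 ± 2.01 CPM at 5 h, against 58.6 ± 1.15 CPM at 0 h (log2 -1.18, edgeR adjusted p = 1.29e-07). NMT2, an N-myristoyltransferase, fell to 16.5 ± 0.654 CPM at 5 h, against 31.1 ± 0.817 CPM at 0 h (log2 -0.92). RABGGTB, the catalytic subunit of the enzyme that prenylates Rab proteins, rose to 139 ± 10.7 CPM at 5 h, against 80.6 ± 5.86 CPM at 0 h (log2 0.79). At 12 h PCYOX1 was at 39.3 CPM (log2 -0.60 against 0 h, adjusted p = 0.000353) and RABGGTB at 126 CPM (0.63, adjusted p = 3.41e-05), while NMT2, at 25.8 CPM, was not called against 0 h (-0.28, adjusted p = 0.0523).

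Of 20 tested genes of palmitoyl-CoA supply and use, 4 were higher and 9 lower at 5 h, and 4 were higher and 7 lower at 12 h, where all genes had 24.9% higher and 24.8% lower at 5 h, and 26.3% and 24.8% at 12 h. SLC27A2, a very-long-chain acyl-CoA synthetase and fatty acid transporter, rose to 48.5 ± 1.53 CPM at 5 h, against 9.45 ± 0.279 CPM at 0 h (log2 2.36, edgeR adjusted p = 3.47e-11). CPT1A, which commits long-chain acyl-CoA to mitochondrial oxidation, fell to 84.2 ± 7.56 CPM at 5 h, against 315 ± 16.8 CPM at 0 h (log2 -1.90, adjusted p = 8.17e-13). SLC27A5 fell to 2.64 ± 0.516 CPM at 5 h, against 7.54 ± 1.30 CPM at 0 h (log2 -1.51). At 12 h SLC27A2 was at 35.1 CPM (log2 1.86 against 0 h) and CPT1A at 92.1 CPM (-1.78), both called, while SLC27A5, at 5.69 CPM, was not called against 0 h (-0.44, adjusted p = 0.132) and was called higher than at 5 h (1.07, adjusted p = 0.00591).

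Of 16 other tested ABHD and LYPLA-like hydrolases, 0 were higher and 5 lower at 5 h, and 1 was higher and 6 lower at 12 h, against 24.9% and 24.8% of all genes at 5 h and 26.3% and 24.8% at 12 h. The 3 largest falls at 5 h were those of ABHD14A (3.31 ± 1.37 CPM at 5 h against 14.4 ± 1.54 CPM at 0 h, log2 -2.10), ABHD12, a lysophosphatidylserine lipase (22.7 ± 3.79 CPM at 5 h against 55.6 ± 7.53 CPM at 0 h, log2 -1.29), and ABHD15 (13.9 ± 2.48 CPM at 5 h against 26.4 ± 1.44 CPM at 0 h, log2 -0.92). At 12 h they stood at 5.39, 26.6 and 18.7 CPM, and each was called lower than at 0 h (log2 -1.38, -1.05 and -0.52).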

How the data were processed

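mRNA was measured in 9 libraries of Jurkat cells in 3 groups of 3. The authors deposited a table of whole-number counts per Ensembl gene and a table of log2 values. The submitters' processing notes name cutadapt, RSEM, DESeq2 and GRCh38.p13, and RSEM estimates may have been rounded. The aligner, the annotation release and whether strand was used: not given in the sources used here. Each deposited log2 value equals log2 of the count over 1 factor per library, plus 1.

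Of the 35 members, 31 matched by deposited symbol and 4 through a gene name table. Members and gene lists were chosen with earlier results of these data known. Counts entered 1 edgeR 4.0.16 quasi-likelihood fit (R 4.3.3) over all 9 libraries, with TMM scaling, filterByExpr (12036 genes left) and Benjamini-Hochberg adjustment over all genes tested, called under 0.05. Biological variation (common coefficient) was 0.0887. The code was tested on simulated data. CPM use TMM-scaled library sizes, means are ± SD with n = 3, SE are on the log2 scale, and coordinates are 1-based (GENCODE release 29). Per-library values are given for members called with a log2 fold change of at least 0.58 in size or called in opposite directions, and for some others after their values were seen. From each list, the 3 called genes with the largest difference at 5 h are named. No 2 libraries agreed within sampling noise.

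Alternatives were DESeq2 size factors or library totals, no filter, a filter of 50 counts in 3 libraries, the DESeq2 1.42.0 Wald test, limma 3.58.1 on the deposited log2 values, only the 2 groups compared, a replicate block, and each library left out.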

Additional observations from a re-analysis of the deposited data

Results flagged for a closer look

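The effect at 12 h differed from that at 5 h, by the direct edgeR test of 12 h against 5 h, for 9 members, beside 18.1% of all genes higher and 17.9% lower in that test. The difference in log2 fold change against 0 h was 1.19 for ZDHHC24 (0.34 at 12 h and -0.85 at 5 h), 0.89 for ZDHHC12 (-0.46 at 12 h and -1.36 at 5 h), 0.57 for ZDHHC8 (0.34 at 12 h and -0.23 at 5 h) and 0.29 for ZDHHC20 (-0.26 at 12 h and -0.55 at 5 h). It was -1.25 for ZDHHC11 (-0.68 at 12 h and 0.57 at 5 h), -0.70 for ZDHHC14 (-1.22 at 12 h and -0.52 at 5 h) and -0.47 for ZDHHC13 (-0.47 at 12 h and 0.00 at 5 h). For LYPLA1 it was -0.37 (-0.32 at 12 h and 0.05 at 5 h) and for ZDHHC17 -0.36 (0.03 at 12 h and 0.39 at 5 h). In refits without 1 library or under other settings, the call was lost in 4 for ZDHHC20, 3 for LYPLA1 and 2 for ZDHHC14. It was lost in none for the other members. ZDHHC11 held only 10 to 48 counts per library and overlaps BRD9, as described above.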

How the results depend on the processing

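Of the 40 calls, 315 of 360 refits without 1 library and 297 of 317 refits under other settings kept direction and threshold, 45 and 20 lost the call and 0 reversed. Leaving out 1 library gave 12 to 17 called members at 5 h against 0 h, 11 to 16 at 12 h against 0 h and 7 to 11 at 12 h against 5 h. The 1 count that moved by over 1.5 times was that at 12 h against 0 h, 10 with limma on the deposited log2 values (1 higher, 9 lower) against 16. The limma count includes GOLGA7B as lower (-1.41, adjusted p = 0.00525), which the main fit did not test. The cause of the move was not tested. Whether replicate numbers pair the samples cannot be settled with 3 libraries per group. Correlations of same-numbered libraries ran from -0.14 to 0.16, and 6 of 18 best matches shared a number. For replicates 1, 2 and 3 the correlations were 0.163, 0.107 and 0.0119 between 12 h and 5 h. They were 0.035, -0.0753 and 0.0536 between 5 h and 0 h, and -0.0998, -0.123 and -0.143 between 12 h and 0 h. A replicate block gave 16 called members at 5 h and 15 at 12 h, each against 0 h, and 9 at 12 h against 5 h, where the fit without it gave 15, 16 and 9. The block called ABHD17A lower at 5 h (-0.41, adjusted p = 0.0216) and lost ZDHHC6 at 12 h (-0.22, adjusted p = 0.0548).

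The values that changed sign were all uncalled. With library totals alone these were, at 5 h, ZDHHC13 (-0.12), GOLGA7 (-0.0285), SELENOK (-0.0242) and LYPLA1 (-0.0722), at 12 h, ZDHHC17 (-0.0784) and LYPLA2 (-0.00559), and at 12 h against 5 h, ZDHHC7 (0.000279) and ABHD17B (0.00268). ZDHHC13 at 5 h was also -0.00282 without a filter, -0.0196 with the filter of 50 counts and -0.00198 with 2 groups. At 12 h against 5 h, ABHD17B was 0.00103 with the filter of 50 and ZDHHC21 0.00152 with limma. Leaving out 1 library gave, at 5 h, -0.0224 to 0.14 for LYPLA1, -0.0908 to 0.014 for PPT2 and -0.0425 to 0.0416 for ZDHHC13. At 12 h against 0 h it gave -0.15 to 0.10 for ABHD17A, -0.16 to 0.11 for PPT2, -0.0466 to 0.11 for ZDHHC17 and -0.15 to 0.0144 for ZDHHC18. At 12 h against 5 h it gave -0.19 to 0.0200 for ABHD10, -0.0673 to 0.0759 for ABHD17B, -0.12 to 0.15 for PPT2, -0.0133 to 0.14 for SELENOK, -0.00922 to 0.14 for ZDHHC18, -0.0803 to 0.0928 for ZDHHC21, -0.0788 to 0.0724 for ZDHHC7 and -0.05002 to 0.0823 for ZDHHC9. Counts of 10 to 91 per library limit ZDHHC11, ZDHHC15 and ABHD17C most among the called members.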
